A study of Mus musculus with 12 samples.

Results

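Day 7 embryoid bodies (EBs) lacking HP1β were compared with WT EBs, on 4 of the 12 arrays of the series. A gene entered the comparison if it had a feature carrying its symbol alone and a signal above 45 (log2 5.49) on at least 1 of these 4 arrays, which held for 10124 of 19938 genes. EBs are aggregates of embryonic stem cells (ESCs) that differentiate in suspension after leukaemia inhibitory factor (LIF) is withdrawn. HP1β, encoded by Cbx1, is 1 of 3 mouse HP1 proteins, with HP1α (Cbx5) and HP1γ (Cbx3). Just inside the floor stood Adamtsl1 and Trpc1, whose highest log2 signal on the 4 arrays was 5.4925, and just outside it Tox2 at 5.4916.

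The HP1βKO EBs (Cbx1-/-) and the HP1αKO EBs, which are given beside them where another genotype helps to place a value, carry the line name R1 in the labels, and the WT EBs carry the line name HM1. All were kept untreated in Petri dishes in ESC medium without LIF and taken at day 7, with 2 arrays per group, called biological replicates 1 and 2 in the sample titles. Before aggregation the ESCs grew on mouse embryonic fibroblast feeders. The study's methods call HM1 a littermate control of both knockouts, so genotype and line cannot be told apart in these values, and the sources used here do not say whether a group is 1 clone. The methods speak of 2 biological samples of each cell type and do not say whether these were separate cultures. The p-values therefore measure the spread between these arrays only.

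HP1 proteins bind histone H3 methylated on lysine 9 through a chromodomain and recruit silencing factors to heterochromatin. EBs left without LIF lose the transcription factors that hold ESCs undifferentiated and form derivatives of the embryonic layers, and among them beating heart muscle, primitive red cells, endothelium and yolk-sac-like endoderm are well known. Heart muscle forms from mesoderm under BMP, FGF and Nodal signals, switches on a kernel of transcription factors (Nkx2-5, Gata4, Mef2c, Myocd) and then assembles sarcomeres from myosin, actin, troponin and titin. The hind part of the embryo is patterned instead by Hox genes of the 5′ end of their clusters and by the hindlimb and allantois factors Tbx4 and Pitx1, and retinoic acid, made by Aldh1a2, sets positions along the body axis.

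Over the genes tested, the median log2 signal of an EB array lay between 7.36 and 7.49, and between 94.2% and 95.2% of the genes exceeded the floor of 45. The SD of the replicate difference was 0.188 (log2) in HP1βKO and 0.177 in WT EBs, against 0.366 to 0.522 in the 3 ESC groups, whose arrays share the estimate of spread. Cbx1 gave log2 signals of 7.73 and 7.67 in HP1βKO EBs, against 9.37 and 9.45 in WT EBs, a log2 difference of -1.71 ± 0.21 (n = 2 per group, limma, adjusted p = 0.00186), and whether its feature lies in the deleted part was not tested. Cbx3 and Cbx5 differed by -0.16 and -0.09 (adjusted p = 0.733 and 0.98). Hprt, a purine salvage enzyme that the line HM1 is known to lack, was below the floor on the HP1βKO arrays (3.83 and 4.12) and the WT arrays (4.22 and 4.40), and above it on the HP1αKO arrays (6.28 and 6.84), although both knockouts are labelled R1. Among the ESC arrays, Cbx5 was high on the library labelled ESC HP1αKO 2 (10.00) and low on the library labelled ESC WT 2 (8.29), against their labels. Hprt was low on ESC HP1αKO 2 (4.25, against 8.40 on ESC HP1αKO 1) and high on ESC WT 2 (8.84, against 6.48 on ESC WT 1). Differences in ESCs are therefore given with and without these 2 libraries.

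In all, 378 genes (3.73% of those tested) passed an adjusted p of 0.05, of which 194 (1.92%) rose and 184 (1.82%) fell in HP1βKO EBs. Heart muscle genes, Bmp2 and Bmp5, the Nodal co-receptor Cfc1 and Otx2 fell, while hindlimb factors, 5′ Hox genes, retinoic acid enzymes and several pluripotency genes rose. The arrays of the 2 groups were apart for each of the 378, as they were for 56.9% of all genes tested. The median difference over all genes tested was -0.01 with an SD of 0.41 (log2), and 88.5% of genes differed by less than 0.5, whereas called genes differed by a median of 1.17 in either direction and by 0.49 at least. A log2 difference of 1 is 2-fold, and 120 of the called genes rose and 119 fell by more than 2-fold, 25 and 31 by more than 4-fold. Of the called genes, 152 had the mean of 1 group under the floor and 15 the means of both, so their differences reach into the range where signal and background merge, and a fold against a group under the floor is a fitted value that sets no order among genes. Of the 194 that rose, 78 were above the floor on HP1βKO arrays only, and of the 184 that fell, 77 on WT arrays only. The floor set the direction of these genes, which include 21 of the 45 list members that rose and 25 of the 63 that fell, and counts and medians of a list are therefore given as a description. Without any 1 of the 4 arrays, between 110 and 130 genes were called, 90 of the 378 in all 4 such fits, and on the 6 EB arrays alone 2000 (19.8%) were called, among them all 378. A rule of fold alone, with every pair of arrays at least 1.5-fold apart, held for 555 genes (5.48%), and at 2.5-fold for 126 (1.24%). RNA came from whole EBs, and fewer cells of a type and less RNA per cell cannot be told apart.

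The lowest medians of all gene lists were those of the heart sarcomere. To describe the sequence near the start sites of these genes, windows of 300 bases (250 before, 50 after, RefSeq, build GRCm38.p6) were searched on both strands for the CArG box, the element bound by serum response factor, and for the MEF2 box. All 14 called members of the myosin, thin filament and Z-disc lists had a window, 20 windows in all. A CArG box stood in 5 of the 20 windows (25%), against 1.63% of all 32851 windows and 1.36% of those of tested genes, and a MEF2 box in 2 (10.0%), against 0.557% and 0.374%. Together 7 of the 14 genes carried either box and 7 carried neither. Over the windows of all lower genes, a CArG box stood in 8 of 180 (4.44%) and a MEF2 box in 3 (1.67%). Of the other motifs searched, GGGCGG stood in 2 of the 20 windows (10.0%, against 65.7% of those of tested genes), CCAAT in 11 (55.0%, against 37.9%) and TATAAA in 3 (15%, against 6.72%). Windows of the 8 Hox genes that rose, 9 in number, held neither a CArG box nor a MEF2 box. These matches are a description of letters, not of bound sites. The CArG box lay 47 bases before the start of Actc1, 61 before that of Myl7 and 85 before that of Myl3, and the MEF2 box 90 bases before that of Mybpc3 and 166 before that of Ttn. These 5 windows follow, with the box in capitals, at chr2:114052826-114053125 (minus strand), chr11:5898733-5899032 (minus), chr9:110763428-110763727 (plus), chr2:91117894-91118193 (plus) and chr2:76982498-76982797 (minus).
Actc1: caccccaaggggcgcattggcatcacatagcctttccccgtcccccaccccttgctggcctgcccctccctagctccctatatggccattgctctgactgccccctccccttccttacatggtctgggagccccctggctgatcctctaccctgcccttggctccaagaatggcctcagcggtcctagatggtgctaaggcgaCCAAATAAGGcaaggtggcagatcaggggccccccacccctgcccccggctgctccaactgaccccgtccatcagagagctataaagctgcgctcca
Myl7: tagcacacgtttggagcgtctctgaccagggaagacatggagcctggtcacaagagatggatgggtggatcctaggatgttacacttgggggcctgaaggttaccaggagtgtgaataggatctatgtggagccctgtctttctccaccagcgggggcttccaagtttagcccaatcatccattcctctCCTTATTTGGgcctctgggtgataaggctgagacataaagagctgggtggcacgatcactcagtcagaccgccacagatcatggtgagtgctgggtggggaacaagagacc
Myl3: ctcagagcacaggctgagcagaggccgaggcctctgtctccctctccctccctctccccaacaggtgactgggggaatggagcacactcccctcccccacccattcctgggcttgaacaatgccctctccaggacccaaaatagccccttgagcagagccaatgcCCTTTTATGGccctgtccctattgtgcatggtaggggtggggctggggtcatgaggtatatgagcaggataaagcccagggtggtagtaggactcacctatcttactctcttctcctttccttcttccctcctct
Mybpc3: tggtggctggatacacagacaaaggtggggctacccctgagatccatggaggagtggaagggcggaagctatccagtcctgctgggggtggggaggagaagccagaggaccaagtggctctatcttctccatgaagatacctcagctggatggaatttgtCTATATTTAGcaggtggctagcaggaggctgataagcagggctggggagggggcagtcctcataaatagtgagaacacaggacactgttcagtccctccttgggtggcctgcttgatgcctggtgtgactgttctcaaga
Ttn: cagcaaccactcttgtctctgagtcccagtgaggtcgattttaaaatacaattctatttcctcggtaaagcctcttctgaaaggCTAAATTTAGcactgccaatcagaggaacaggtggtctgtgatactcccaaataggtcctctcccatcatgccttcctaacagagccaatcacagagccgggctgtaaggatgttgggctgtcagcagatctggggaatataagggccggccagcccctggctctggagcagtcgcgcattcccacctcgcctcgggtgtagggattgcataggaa

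All 6 tested myosin genes of heart fell in HP1βKO EBs, with a median log2 difference of -2.71, where 1.82% of all genes fell. Of the 6, Myh7 and Myl3 were above the floor on the WT arrays only, so their direction was set by the floor. Myl7, the atrial regulatory light chain, gave log2 signals of 6.82 and 6.03 in HP1βKO EBs, against 10.46 and 10.32 in WT EBs. Both HP1βKO arrays lay far below both WT arrays, a 15.6-fold lower mean level (-3.97 ± 0.32, adjusted p = 0.000108). Its CArG box is that of the second window above. Myl4, the atrial essential light chain, gave 7.08 and 6.65 in HP1βKO EBs, against 9.83 and 9.89 in WT EBs, and Myl3, the ventricular one, 4.87 and 4.80 in HP1βKO EBs, against 7.32 and 7.27 in WT EBs (log2 signals). With these, the differences were -2.99 ± 0.24 and -2.46 ± 0.12, and the WT arrays of each gene lay within 0.1 of one another. The heavy chains Myh7 and Myh6 had log2 signals of 5.05 and 4.76 and 5.55 and 5.13 in HP1βKO EBs, against 7.74 and 7.97 and 7.93 and 7.67 in WT EBs, and on the HP1βKO arrays Myh7 was under the floor. Mybpc3, which cross-links myosin to titin, fell least of the list (-1.45 ± 0.20, adjusted p = 0.00414). In HP1αKO EBs all 6 stood above the WT arrays, for example Myl7 at 11.27 and 11.31 and Myh6 at 9.84 and 9.95, so the HP1βKO values were the lowest of the 3 genotypes. Myl2, the ventricular regulatory light chain, was under the floor on all 4 arrays. Without any 1 of the 4 arrays, 5 or 6 of the genes remained called.

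Of the thin filament genes above the floor (7 of 10 on the array), 4 fell, where 1.82% of all genes did, with a list median of -1.82. Actc1, the cardiac actin, gave 8.91 and 8.06 in HP1βKO, 12.38 and 12.35 in HP1αKO and 11.61 and 11.46 in WT EBs (log2 signals). The HP1βKO arrays differed from one another by more than those of the other EB groups did, and still lay clearly below both WT arrays (-3.05 ± 0.59, adjusted p = 0.0202). With any 1 of the 4 arrays left out Actc1 lost its call. The ESC arrays, which share the estimate of spread, differed more, at 8.45 and 6.92 in ESC HP1βKO, 6.80 and 5.37 in ESC WT and 6.59 and 5.4 in ESC HP1αKO. On the 6 EB arrays alone limma's adjusted p was 0.000134. For Tnnt2, the tropomyosin-binding subunit of troponin, log2 signals were 7.26 and 7.01 in HP1βKO EBs, against 9.89 and 9.79 in WT EBs, a 6.52-fold lower level (-2.71 ± 0.17, adjusted p = 3.31e-05). Tnnc1, the calcium-binding subunit, and Tnni1, the inhibitory subunit of slow muscle, fell by 2.75 and 1.82 on the log2 scale. No array of the knockout reached the level of a WT array for any of the 4. The tropomyosins, which are also used outside muscle, stood apart: Tpm1 and Tpm2 differed by -0.31 and -0.19 and passed no threshold, and Acta1 by -0.60.

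Genes of the Z-disc, M-band and sarcomere assembly went the same way. In this list 4 of 9 tested members were lower, against 1.82% of all genes, and the median was -0.93. Smyd1, a methyltransferase of striated muscle needed for sarcomere assembly, gave 4.57 and 4.51 in HP1βKO EBs, against 7.67 and 7.79 in WT EBs (log2 signals). The replicates of Smyd1 lay within 0.12 of one another in each group, and its adjusted p was the lowest of this group of genes (-3.20 ± 0.11, adjusted p = 1.3e-06). Nebl, which anchors thin filaments at the Z-disc, and Ttn, the elastic filament that spans the sarcomere, were under the floor on both HP1βKO arrays at 3.92 and 4.10 and 3.72 and 3.90, against 6.12 and 6.38 and 5.86 and 5.15 in WT EBs. Myom1, which ties myosin together at the M-band, fell by 0.81. Actn2, Nexn and Des, with differences of -0.97, -0.93 and -0.86, did not pass (adjusted p = 0.182 for Actn2). Smyd1, Nebl, Ttn and Myom1 were above the floor on the WT arrays only. On the 6 EB arrays alone 8 members were called, where 19.8% of all genes were. Of the 9, 5 entered the test through the WT arrays only, so that a difference was set for these by the choice of floor.

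**Figure D1:**
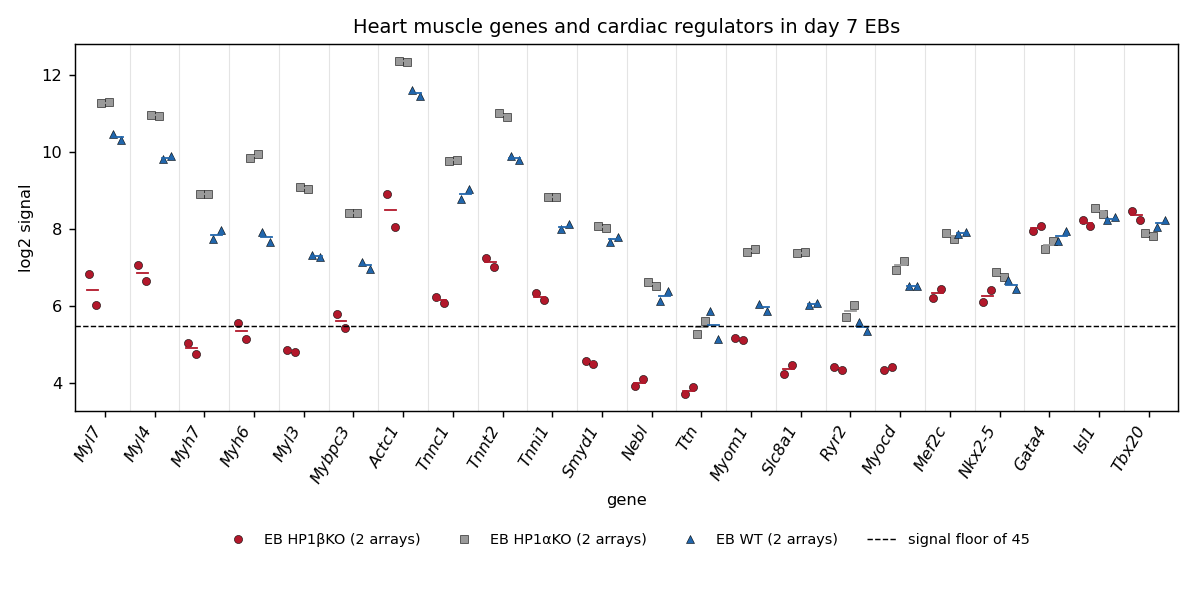
Log2 signal of each array (y axis) for 22 genes of the heart (x axis) in day 7 EBs, with the 2 HP1βKO arrays as circles, the 2 HP1αKO arrays as squares, the 2 WT arrays as triangles, a line at each group's mean and a dashed line at the floor of 45. The HP1βKO arrays lie lowest for the sarcomere genes, such as Myl7 at 6.82 and 6.03, while Nkx2-5, Gata4, Isl1 and Tbx20 lie close together in all groups.

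Upstream of the sarcomere the transcription factors were split. Myocd, a partner of serum response factor that switches on cardiac and smooth muscle genes, gave log2 signals of 4.33 and 4.42 in HP1βKO EBs, against 6.53 and 6.52 in WT EBs, with both HP1βKO arrays under the floor (-2.15 ± 0.22, adjusted p = 0.0006). Mef2c, a MADS-box factor of muscle, gave 6.22 and 6.43 in HP1βKO EBs, against 7.87 and 7.92 in WT EBs (log2 signals; -1.56 ± 0.15, adjusted p = 0.00039), and its 2 groups were each tight and well apart. Hey2, a repressor of the ventricular myocardium, fell by 1.08 (adjusted p = 0.0213). Against these, Gata6, a zinc finger factor of heart and endoderm, and Tbx2, a T-box repressor of the atrioventricular canal, rose by 0.81 ± 0.15 and 1.00 ± 0.16 (log2 differences, adjusted p = 0.0155 and 0.00941). The early cardiac factors differed little: Nkx2-5 by -0.29 ± 0.19 (adjusted p = 0.612), Gata4 by 0.20, Isl1 by -0.11, Tbx20 by 0.21 and Hand2 by -0.12. Nkx2-5 gave log2 signals of 6.12 and 6.42 in HP1βKO EBs, against 6.68 and 6.43 in WT EBs, so that the higher HP1βKO array lay just under the lower WT array. The list as a whole had 2 higher and 3 lower of 17 of 22 genes on the array (29.4% called, against 3.73% of all genes) and a median of -0.12. Without any 1 array, 0 or 1 of the rises and 2 or 3 of the falls held.

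Calcium handling was represented by few genes above the floor (8 of 18). Of these 8, 37.5% were called, against 3.73% of all genes. Slc8a1, the sodium-calcium exchanger that clears calcium after each beat, gave 4.25 and 4.47 in HP1βKO EBs, against 6.03 and 6.08 in WT EBs (log2 signals), under the floor in HP1βKO EBs only (-1.69 ± 0.13, adjusted p = 8.67e-05). Ryr2, the calcium release channel of the cardiac sarcoplasmic reticulum, fell by 1.09 (adjusted p = 0.00824), while Cacna1h, a T-type calcium channel, rose by 0.64 (adjusted p = 0.0464). Each of these 3 calls was above the floor in 1 group only. Atp2a2, the calcium pump that refills the store, and Gja1, the main ventricular gap junction protein, differed by -0.18 and -0.24 and were not called. The skeletal factors Myod1, Myf5 and Myog were under the floor on all 4 arrays. Of 12 smooth muscle and actomyosin genes tested, only Myh10, a non-muscle myosin, was called (0.50 ± 0.12, adjusted p = 0.0491). That is 8.33% of the list, against 3.73% of all genes. In that list Cnn1 differed by -1.61 with an adjusted p of 0.227. Summed over Tnnt2, Myh6, Myh7, Actc1 and Nkx2-5, the linear signal was 785 and 543 in HP1βKO, 8923 and 8730 in HP1αKO and 4628 and 4236 in WT EBs.

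Several signals that pattern mesoderm were lower as well. Of 15 BMP ligands, regulators and targets tested, 4 fell and none rose, where 1.82% of all genes fell and 1.92% rose. In this list 14 of the 15 differences were below 0, and the median was -0.69. Of these genes 2, Bmper among them, were above the floor on WT arrays only. Bmp5 gave log2 signals of 7.49 and 6.70 in HP1βKO EBs, against 9.18 and 9.35 in WT EBs, and Bmp2, needed for heart and amnion formation, 5.93 and 5.52 in HP1βKO EBs, against 7.13 and 7.25 in WT EBs. Both ligands were lower on each HP1βKO array than on each WT array, by -2.17 ± 0.23 and -1.46 ± 0.17 (log2 differences, adjusted p = 0.000755 and 0.0014), and the HP1αKO arrays lay between, at 8.38 and 8.32 and 6.81 and 6.67. Bmper, a secreted BMP-binding regulator, and Msx2, a homeobox target of BMP signals, fell by 1.59 and 1.47. Msx2 was low in HP1αKO EBs too, at 5.7 and 6.04, against 5.85 and 5.87 in HP1βKO and 7.18 and 7.47 in WT EBs (log2 signals). Bmper differed by 0.03 between HP1αKO and WT EBs. Bmp4 differed by -0.69 ± 0.22 (adjusted p = 0.156) and the Id genes, immediate targets of BMP receptors, by -0.82 (Id1), -0.99 (Id2) and -0.90 (Id3), none of them past the threshold. On the 6 EB arrays alone, where 19.8% of all genes were called, 10 members were lower and 1 higher. Without any 1 array, 2 or 3 were called lower.

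In the Nodal and apelin lists, 1 gene each fell by over 3 on the log2 scale. Cfc1 (Cryptic), a co-receptor through which Nodal sets the left-right axis, gave log2 signals of 4.47 and 4.55 in HP1βKO, 5.59 and 5.84 in HP1αKO and 7.90 and 8.08 in WT EBs. Only the WT arrays were well above the floor, and the HP1βKO level was 11.2-fold lower (-3.48 ± 0.18, adjusted p = 1.75e-05). Foxh1, the factor that carries Nodal signals to DNA with Smad2, fell by 1.32 (adjusted p = 0.00584), while Gdf3, a ligand made by pluripotent cells that also acts through Nodal receptors, rose by 1.30 (adjusted p = 0.0152). In the comparison of HP1βKO with WT EBs, Cfc1 was above the floor on WT arrays only and Gdf3 on HP1βKO arrays only. The floor set the direction of both. Nodal itself differed by 0.67 (adjusted p = 0.513), and Lefty1, Lefty2 and Cer1 were under the floor. Apela, which encodes a peptide that binds the apelin receptor, gave 6.65 and 6.38 in HP1βKO, 7.72 and 7.78 in HP1αKO and 9.55 and 9.66 in WT EBs (log2 signals), the lowest of the 3 genotypes in HP1βKO (-3.09 ± 0.33, adjusted p = 0.000712). The receptor Aplnr differed by -0.45 and was not called (adjusted p = 0.827).

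Of the tested FGF, Wnt, Notch and Hedgehog genes, 22.2%, 17.4%, 18.2% and 22.2% were called, against 3.73% of all genes. FGF and Notch calls were all lower, and Wnt and Hedgehog calls went both ways. Fgf15, a ligand of the developing heart field and brain, gave log2 signals of 7.30 and 7.31 in HP1βKO EBs, against 9.17 and 9.37 in WT EBs, with the knockout arrays nearly equal and below both WT arrays (-1.96 ± 0.35, adjusted p = 0.0145). Fgf10, Fgf3 and the receptor Fgfr3 fell by 0.86, 0.67 and 0.67, none of the 18 FGF genes tested rose, and the list median was -0.06. None of these FGF calls survived the loss of an array. Among Wnt genes, Dkk2, a secreted modulator of the Wnt co-receptors, gave 7.53 and 7.23 in HP1βKO, 5.99 and 6.01 in HP1αKO and 4.5 and 4.69 in WT EBs (log2 signals). It stood above the floor only in the 2 knockouts and highest in HP1βKO (2.79 ± 0.45, adjusted p = 0.00836). Rspo2, which potentiates Wnt signals, rose by 1.32 (adjusted p = 0.00592), and the Wnt-binding antagonists Sfrp5 and Sfrp2 fell by 0.92 and 0.75 (adjusted p = 0.018 and 0.0319), whereas Sfrp1 differed by 1.43 ± 0.44 (adjusted p = 0.144). Jag1, a Notch ligand, and Nrarp, a feedback target of Notch, fell, with log2 differences of -1.10 ± 0.13 and -1.11 ± 0.24 (adjusted p = 0.00142 and 0.0368), and all 11 Notch genes tested had differences below 0, with a median of -0.21. Shh fell by 0.83 (adjusted p = 0.0159), and Gas1, a membrane protein that binds it, gave 9.07 and 8.84 in HP1βKO EBs, against 7.15 and 7.58 in WT EBs (log2 signals; 1.59 ± 0.24, adjusted p = 0.00592). On the 6 EB arrays alone, where 19.8% of all genes were called, the Wnt list had 8 higher and 7 lower of 23 tested, in place of 2 and 2. With any 1 of the 4 arrays left out it had none. Of the 4 arrays compared, Dkk2 and Rspo2 were above the floor on HP1βKO arrays only. Fgf3, Fgf10, Sfrp5, Nrarp and Shh were above it on WT arrays only. The floor set the direction of all these genes.

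Genes that make, carry and read retinoic acid were called in both directions. Of 11 tested, 4 were higher and 2 lower (54.5% called, against 3.73% of all genes), with a median of 0.68. Aldh1a2, the enzyme that makes retinoic acid in the trunk mesoderm of the embryo, gave log2 signals of 8.45 and 8.30 in HP1βKO, 5.82 and 5.95 in HP1αKO and 5.68 and 5.82 in WT EBs. The HP1αKO and WT arrays lay close together, and the HP1βKO level was 6.16-fold that of WT EBs (2.62 ± 0.17, adjusted p = 3.31e-05). Its receptor and target Rarb gave 8.14 and 8.01 in HP1βKO, 7.77 and 7.85 in HP1αKO and 6.96 and 6.84 in WT EBs (log2 signals), so that HP1αKO EBs lay between the others (1.17 ± 0.16, adjusted p = 0.00304). Dhrs3, a reductase of retinal that retinoic acid induces, and Rbp4, the carrier of retinol, rose by 1.5 ± 0.24 and 1.06 ± 0.17 (log2 differences). The cellular binding proteins ran the other way: Crabp1 gave 8.65 and 8.55 in HP1βKO EBs, against 9.94 and 10.25 in WT EBs and Crabp2 7.83 and 7.69 in HP1βKO EBs, against 9.11 and 9.36 in WT EBs (log2 signals), lower by 1.49 and 1.47 (adjusted p = 0.00155 and 0.012). Rdh10, which makes the retinal that Aldh1a2 uses, differed by 1.10 (adjusted p = 0.105), and the degrading enzyme Cyp26a1 by -0.40. On the 6 EB arrays alone, where 19.8% of all genes were called, 7 of the list were higher and 3 lower. Aldh1a2, Rarb and Crabp1 passed with any 1 array left out.

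Several factors of the hindlimb and allantois rose. Tbx4 gave log2 signals of 8.79 and 8.25 in HP1βKO, 6.85 and 6.74 in HP1αKO and 5.11 and 4.93 in WT EBs, under the floor in WT EBs and at an intermediate level in HP1αKO EBs. Against these background-level WT arrays its HP1βKO level was 11.3-fold (3.50 ± 0.21, adjusted p = 2.84e-05). Pitx1, the homeobox factor that gives the hindlimb its identity and lies upstream of Tbx4 in the limb, gave 8.93 and 8.97 in HP1βKO, 7.09 and 6.89 in HP1αKO and 6.75 and 6.75 in WT EBs (log2 signals; 2.19 ± 0.17, adjusted p = 0.000102), with WT and HP1αKO arrays close to each other. Tbx2 rose as well, while Msx2 and Fgf10, both also made by the limb bud, fell as given above. Prrx1, a factor of limb and head mesenchyme, differed by 1.72 ± 0.65 and did not pass (adjusted p = 0.259). Tbx5, the forelimb and heart factor, was under the floor on all 4 arrays. In all, 5 limb and allantois genes were higher and 2 lower of 16 of 21 on the array (43.8% called, against 3.73% of all genes), with a median of 0.68. Of the 5, Tbx4, Hoxd13 and Hoxa13 were above the floor on HP1βKO arrays only, and of the 2, Fgf10 was above it on WT arrays only.

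Of the 37 Hox genes with a feature, 12 were above the floor, 9 of them on HP1βKO arrays only and 2 on WT arrays only, so that for these 11 the choice of floor set the direction, and their count is given as a description. Genes of the Hoxd cluster from Hoxd8 to Hoxd11 and Hoxd13, and of the 5′ part of the Hoxa cluster (Hoxa9, Hoxa11, Hoxa13), were the 8 that rose. Over all genes tested, 1.92% rose. Hoxd13, the last gene of its cluster, which patterns digits and hindgut, gave log2 signals of 5.93 and 5.85 in HP1βKO, 3.57 and 3.11 in HP1αKO and 3.53 and 3.47 in WT EBs. Hoxa11, which patterns the zeugopod and the allantois, gave 5.82 and 5.86 in HP1βKO, 3.93 and 4.15 in HP1αKO and 3.76 and 3.77 in WT EBs, and Hoxd10 6.51 and 6.49 in HP1βKO, 4.83 and 4.79 in HP1αKO and 4.54 and 4.52 in WT EBs (log2 signals). For each of these 3, HP1βKO arrays were above the floor, WT and HP1αKO arrays were both under it, and the replicates lay within 0.08 of one another in HP1βKO. Log2 differences were 2.39 ± 0.19 (adjusted p = 9.95e-05), 2.08 ± 0.15 (5.93e-05) and 1.97 ± 0.16 (0.000108), and those of Hoxa9, Hoxa13, Hoxd11, Hoxd9 and Hoxd8 were 2.00, 1.80, 1.19, 1.11 and 1.11. Hoxb2, a 3′ gene of the hindbrain, went the other way at 5.85 and 5.52 in HP1βKO EBs, against 7.02 and 7.62 in WT EBs (log2 signals; -1.64 ± 0.29, adjusted p = 0.0126). Without any 1 array, 6 to 8 of the rises and 0 or 1 of the falls held.

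**Figure D2:**
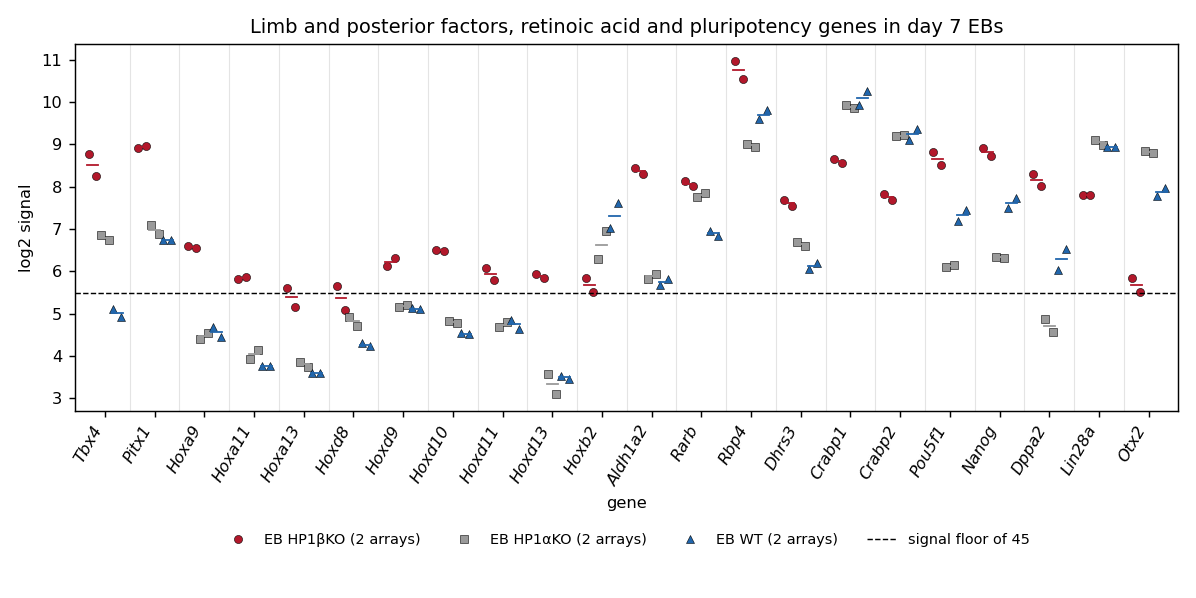
Log2 signal of each array (y axis) for 22 genes of limb and posterior patterning, retinoic acid and pluripotency (x axis) in day 7 EBs, drawn with circles for the 2 HP1βKO arrays, squares for the 2 HP1αKO arrays, triangles for the 2 WT arrays, lines at the means and a dashed line at the floor of 45. Tbx4, Pitx1 and the Hox genes other than Hoxb2 are highest in HP1βKO, and Pou5f1, Nanog and Dppa2 are highest in HP1βKO and lowest in HP1αKO.

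Genes of pluripotent cells, which differentiation normally silences, were partly higher in HP1βKO EBs. Among 14 core genes tested 5 rose and 1 fell (median 0.27), where 1.92% and 1.82% of all genes did. Of the 5 rises, Gdf3 was above the floor on HP1βKO arrays only, so that the floor set its direction. Pou5f1 (Oct4) gave log2 signals of 8.81 and 8.51 in HP1βKO, 6.11 and 6.15 in HP1αKO and 7.19 and 7.46 in WT EBs, and Nanog 8.92 and 8.74 in HP1βKO, 6.34 and 6.32 in HP1αKO and 7.51 and 7.74 in WT EBs. The order was the same for both, with HP1βKO above WT and WT above HP1αKO, and no 2 groups overlapped. Their log2 differences from WT were 1.34 ± 0.14 (adjusted p = 0.000736) and 1.2 ± 0.26 (0.0319), and Dppa2 and Utf1, chromatin proteins of early embryonic cells, rose by 1.87 ± 0.41 and 1.21 ± 0.22. Sox2, which neural cells also use, differed by -0.59 (adjusted p = 0.173), and Lin28a, an RNA-binding protein that blocks let-7 maturation, fell (-1.13 ± 0.15, adjusted p = 0.00309). Of the naive genes, 3 of 16 tested rose (Dppa5a, Nr0b1 and Stat3, by 1.37, 1.58 and 0.79), 15 had differences above 0, and the median was 0.63, but 6 of the 16, Nr0b1 among them, were above the floor on HP1βKO arrays only, which set their sign. Esrrb and Zfp42 differed by 0.73 and 0.66 and did not pass. Without any 1 array, between 1 and 2 of the 5 core rises and none of the 3 naive rises held. On the 6 EB arrays alone, where 19.8% of all genes were called, 7 core and 12 naive genes were higher.

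Genes of the formative state, which ESCs pass through when they leave naive pluripotency, gave a single call, downwards. Otx2, its leading factor and later a factor of the forebrain, gave log2 signals of 5.83 and 5.51 in HP1βKO, 8.84 and 8.79 in HP1αKO and 7.78 and 7.97 in WT EBs, so HP1βKO arrays were lowest (-2.20 ± 0.28, adjusted p = 0.00192). The list held 13 tested genes, of which 7.69% were called, against 3.73% of all genes. Of the 13, 4 were above the floor on WT arrays only, and the median was -0.49. The summed linear signal of Pou5f1, Sox2, Nanog, Zfp42 and Esrrb was 1445 and 1197 in HP1βKO, 1194 and 1172 in HP1αKO and 852 and 1023 in WT EBs. All 5 were above the floor in HP1βKO EBs and 3 in the others, and the same sum was 6143 and 7077 on the ESC HP1βKO arrays. Pou5f1, Nanog, Zfp42 and Esrrb were each lowest in HP1αKO EBs. Sox2 was highest there and made up most of the HP1αKO sum. Its log2 signals were 9.98 and 9.95 in HP1αKO, 8.52 and 8.22 in HP1βKO and 8.83 and 9.09 in WT EBs.

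Ectodermal genes were lower where they were called. Of 10 neural progenitor genes tested, 3 fell and none rose (median -0.53), where 1.82% of all genes fell, and all 3 (Pax3, Zic1 and Fabp7) were above the floor on WT arrays only, so that the floor set their direction. Pax3, a factor of the dorsal neural tube, neural crest and somites, gave log2 signals of 3.88 and 3.88 in HP1βKO EBs, against 6.10 and 6.45 in WT EBs, and Zic1, a zinc finger factor of the dorsal neural tube, 3.50 and 3.63 in HP1βKO EBs, against 5.63 and 5.81 in WT EBs. Their log2 differences were -2.39 ± 0.15 and -2.16 ± 0.16 (adjusted p = 3.31e-05 and 6.73e-05), and their HP1αKO arrays (4.75 and 4.65 and 4.91 and 4.75) were also under the floor. Fabp7, the fatty acid binding protein of radial glia, fell by 2.07 (adjusted p = 0.00882). Of 7 genes listed as neuronal, 2 fell, and of these Tubb3 was above the floor on WT arrays only. Stmn2, a tubulin-binding protein of growing axons, gave 5.52 and 5.18 in HP1βKO EBs, against 7.70 and 7.87 in WT EBs (log2 signals; -2.44 ± 0.18, adjusted p = 6.73e-05), and Tubb3, a neuronal tubulin, fell by 1.74 (adjusted p = 0.0367). Both genes were also expressed in ESCs, Stmn2 at 9.85 to 10.46 and Tubb3 at 6.05 to 7.54 over the 6 ESC arrays, so their levels do not single out neurons here. Sox1, Nes and Msi1 differed by -0.09, 0.06 and -0.69, and Lhx2 and Ncam1, at 0.93 and 1.15, missed the threshold narrowly (adjusted p = 0.0502 and 0.0514). Pax6, Neurog2 and Dcx were under the floor on the HP1βKO and WT arrays, while Pax6 was above it in HP1αKO EBs (5.65 and 6.07). The linear sum of Pax6, Sox1, Tubb3 and Nes was 204 and 197 in HP1βKO, 357 and 352 in HP1αKO and 257 and 304 in WT EBs.

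Epithelial genes were mixed. Cdh1 (E-cadherin), the adhesion protein of epithelia and of ESCs, gave log2 signals of 8.28 and 8.13 in HP1βKO EBs, against 9.22 and 9.32 in WT EBs, lower on each HP1βKO array (-1.06 ± 0.13, adjusted p = 0.00156). Esrp1, which directs epithelial splicing, fell with it (-1.24 ± 0.24, adjusted p = 0.0197). Dsp, which links desmosomes to keratins, gave 9.03 and 9.02 in HP1βKO EBs, against 7.96 and 8.0 in WT EBs (log2 signals) and rose (1.05 ± 0.24, adjusted p = 0.0466). Grhl3 and Cldn4 differed by 1.28 and -1.31 and were not called, nor were the mesenchymal genes Vim, Cdh2, Zeb1, Twist1 and Snai1, at 0.07, 0.08, 0.65, 0.65 and 0.62.

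Blood and vessel genes were called in both directions. Of the embryonic globins, Hbb-bh1 gave log2 signals of 9.38 and 9.23 in HP1βKO EBs, against 10.16 and 10.36 in WT EBs and Hbb-y 10.06 and 9.83 in HP1βKO EBs, against 9.14 and 9.34 in WT EBs. Their order was opposite: Hbb-bh1 fell (-0.95 ± 0.14, adjusted p = 0.00467) and Hbb-y rose (0.71 ± 0.15, adjusted p = 0.0334), and as neighbouring, similar genes they may share probes. Tal1, the factor that founds blood, fell by 0.66 (adjusted p = 0.0196), and 10 of 12 erythroid genes tested had differences below 0 (median -0.51), 3 of the 12, Tal1 among them, being above the floor on WT arrays only. Cldn5, the tight junction protein of endothelium, gave 7.82 and 7.76 in HP1βKO EBs, against 6.59 and 6.47 in WT EBs (log2 signals; 1.26 ± 0.22, adjusted p = 0.0116), the only call of 21 endothelial genes tested, and Kdr and Pecam1 differed by 0.45 and 0.32. That single call is 4.76% of the list, near the 3.73% of all genes. For endothelium the linear sum of Kdr, Cdh5, Pecam1 and Tek was 1181 and 1072 in HP1βKO and 1035 and 1150 in WT EBs, and its ranges overlapped. The sum of Hbb-bh1, Hba-x, Gata1 and Klf1 was 2655 and 2302 in HP1βKO, 2147 and 1872 in HP1αKO and 3156 and 3532 in WT EBs, lowest in HP1αKO.

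Endoderm was likewise split. Hhex, a homeobox factor of foregut and anterior endoderm, gave log2 signals of 5.37 and 4.91 in HP1βKO EBs, against 6.41 and 6.57 in WT EBs (-1.35 ± 0.21, adjusted p = 0.00691), whereas Gata6 rose, as given above. Sox17, Foxa1 and Foxa2 differed by -0.82, -1.04 and -0.52 and were not called (adjusted p = 0.0699 for Sox17). Of the secreted proteins of visceral endoderm, Spink1, a trypsin inhibitor, and Fgb, a fibrinogen chain, fell by 1.54 and 0.63 (adjusted p = 0.0159 and 0.0193), and Rbp4 rose. Spink1 was low in HP1αKO EBs too, at 5.19 and 4.89, against 5.82 and 4.93 in HP1βKO and 6.69 and 7.14 in WT EBs (log2 signals). Hhex and Fgb were above the floor on WT arrays only, so that the floor set their direction. Ttr differed by -0.76, Afp by -0.11 and Apoa1 by 0.51. The linear sum of Afp, Ttr, Apoa1 and Amn was 1253 and 848 in HP1βKO, 762 and 706 in HP1αKO and 1356 and 1635 in WT EBs.

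Several mesenchymal matrix genes rose. Col3a1, the fibrillar collagen of loose connective tissue, gave log2 signals of 10.61 and 10.43 in HP1βKO, 9.68 and 9.89 in HP1αKO and 8.09 and 8.34 in WT EBs, and Col14a1, a collagen on the surface of fibrils, 6.74 and 6.83 in HP1βKO, 4.87 and 4.96 in HP1αKO and 5.39 and 5.33 in WT EBs. Col3a1 was highest in HP1βKO and lowest in WT, while Col14a1 was above the floor in HP1βKO alone (2.31 ± 0.53 and 1.43 ± 0.15, adjusted p = 0.0459 and 0.000736). Col5a1 rose by 0.74 (adjusted p = 0.0331), and 14 of the 19 collagen chains tested had differences above 0 (median 0.32). Of the 19, 15.8% were called, against 3.73% of all genes. Pcolce, which speeds the cleavage of procollagen, gave 10.19 and 10.10 in HP1βKO EBs, against 7.66 and 7.85 in WT EBs (log2 signals; 2.38 ± 0.25, adjusted p = 0.000712), and the microfibril protein Mfap4 rose by 1.10. Against these Mfap2 (MAGP1), a microfibril component, gave 6.09 and 6.49 in HP1βKO, 9.65 and 9.81 in HP1αKO and 9.57 and 9.43 in WT EBs (log2 signals) and fell 9.24-fold (-3.21 ± 0.24, adjusted p = 7.98e-05), with HP1αKO close to WT. Col1a1, Postn and Dcn differed by 1.22, 1.45 and 1.01 and were not called.

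Fibroblasts of the feeder layer make the same collagens, so their markers are given beside these values. All 11 of 16 feeder markers that exceeded the floor had differences above 0 (median 0.79), 2 of them called, and 10 on the 6 EB arrays alone. Of all genes, 3.73% and 19.8% were called in these 2 fits. Their summed linear signal was 8504 and 7798 in HP1βKO, 6224 and 6469 in HP1αKO and 4012 and 4199 in WT EBs. Thy1, Lox, Mmp3, S100a4 and Fap were under the floor on all EB arrays. On the ESC arrays, grown with feeders and sorted, the sum lay between 764 and 2653. The part of these cells in the collagen and pluripotency differences was not tested.

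Grb10, an adaptor that dampens insulin and IGF receptors and is expressed from the maternal allele in most tissues, fell most of all genes. Its log2 signals were 5.69 and 5.36 in HP1βKO, 11.52 and 11.53 in HP1αKO and 10.72 and 10.75 in WT EBs, so that the HP1βKO arrays stood at the floor and all others far above it. The difference of -5.21 ± 0.34 is 37-fold (adjusted p = 3.31e-05). Grb14, of the same family of adaptors, fell (-1.27 ± 0.23, adjusted p = 0.0133), and with Igf1 and Igfbp2, lower by 0.84 and 0.86, these were the 4 called of 17 genes of insulin receptor signalling, where the receptors Insr and Igf1r differed by -0.48 and -0.73 and were not called (median -0.13). Of this list 23.5% were called, against 3.73% of all genes. Grb14 and Igf1 were above the floor on WT arrays only, so that the floor set their direction. Of other imprinted genes, Dlk1, a paternally expressed ligand-like protein of mesenchyme, gave 11.50 and 11.37 in HP1βKO, 11.35 and 11.29 in HP1αKO and 9.57 and 9.93 in WT EBs (log2 signals), high in both knockouts (1.69 ± 0.24, adjusted p = 0.00417). Zim1 rose by 0.58, and Airn, the antisense transcript at Igf2r, fell by 0.94 (adjusted p = 0.0255 and 0.0141). Igf2, Igf2r and Plagl1 differed by 0.75, 0.67 and 2.02 (adjusted p = 0.312, 0.123 and 0.0682). In all 23 imprinted genes were tested, with 2 higher, 2 lower (17.4% called, against 3.73% of all genes) and a median of 0.40. The array's features do not tell the alleles apart.

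Among the 25 largest rises and falls, further single genes encode receptors and enzymes, and Glrb and Cxcr4, members of other lists, are given beside them. Angptl7, a secreted angiopoietin-like protein, gave log2 signals of 6.85 and 6.87 in HP1βKO, 4.41 and 4.81 in HP1αKO and 3.48 and 3.53 in WT EBs, well above the floor in HP1βKO EBs alone (10.2-fold, 3.35 ± 0.19, adjusted p = 2.31e-05). Gpr50, an orphan relative of the melatonin receptors, gave 9.18 and 8.88 in HP1βKO, 7.00 and 7.21 in HP1αKO and 6.17 and 6.53 in WT EBs (log2 signals), and S1pr3, a receptor of sphingosine 1-phosphate, 8.23 and 8.22 in HP1βKO, 7.21 and 7.01 in HP1αKO and 5.60 and 5.57 in WT EBs. For Gpr50 the HP1βKO arrays lay highest, and for S1pr3 both knockouts lay above WT (2.69 ± 0.20 for Gpr50 and 2.64 ± 0.28 for S1pr3, adjusted p = 7.98e-05 and 0.000712). Gabra3, a subunit of the GABA-A receptor, gave 7.19 and 7.31 in HP1βKO EBs, against 4.74 and 4.67 in WT EBs (log2 signals; 2.54 ± 0.38, adjusted p = 0.00572), and Glrb, of the glycine receptor, rose by 0.87. Angptl7, Gabra3 and Glrb were above the floor on HP1βKO arrays and not on WT arrays, so that the floor set their direction. The other rises were Lsp1, Tril, Shisa3, Ntm, Cpt1a, Tshz1, Rerg, Pga5, Grin2c, Adam12, Gfra1 and Cyp1b1, by 2.02 to 2.47. Car4, a membrane-bound carbonic anhydrase, gave 7.59 and 7.13 in HP1βKO, 9.67 and 9.51 in HP1αKO and 10.33 and 10.50 in WT EBs (log2 signals), far lower in HP1βKO than elsewhere (-3.05 ± 0.48, adjusted p = 0.00717). Tdo2, which opens the ring of tryptophan, gave 6.17 and 5.80 in HP1βKO, 6.59 and 6.58 in HP1αKO and 8.55 and 8.70 in WT EBs (log2 signals; -2.64 ± 0.15, adjusted p = 2.84e-05), and here HP1αKO was low too. Cxcr4, the receptor through which Cxcl12 guides mesoderm and progenitor cells, gave 7.20 and 7.23 in HP1βKO EBs, against 8.93 and 9.19 in WT EBs (log2 signals; -1.84 ± 0.29, adjusted p = 0.00697). Ctla2a, Cbln1, Cpn1, Sphkap and Pyy fell by 2.21 to 2.35. Of these, Cbln1 and Cpn1 were also lower in HP1αKO than in WT EBs (log2 differences -1.88 and -1.76, not called). Ctla2a, Sphkap and Pyy differed by -0.14, 0.545 and -0.03 there. Of the 25 rises and 25 falls, 37 passed with any 1 array left out, and those that lost the call without at least 1 array were Dkk2, Gabra3, Lsp1, Col3a1, Cpt1a, Rerg, Pga5, Gfra1, Cyp1b1, Car4, Actc1, Cbln1 and Cpn1.

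**Figure D3:**
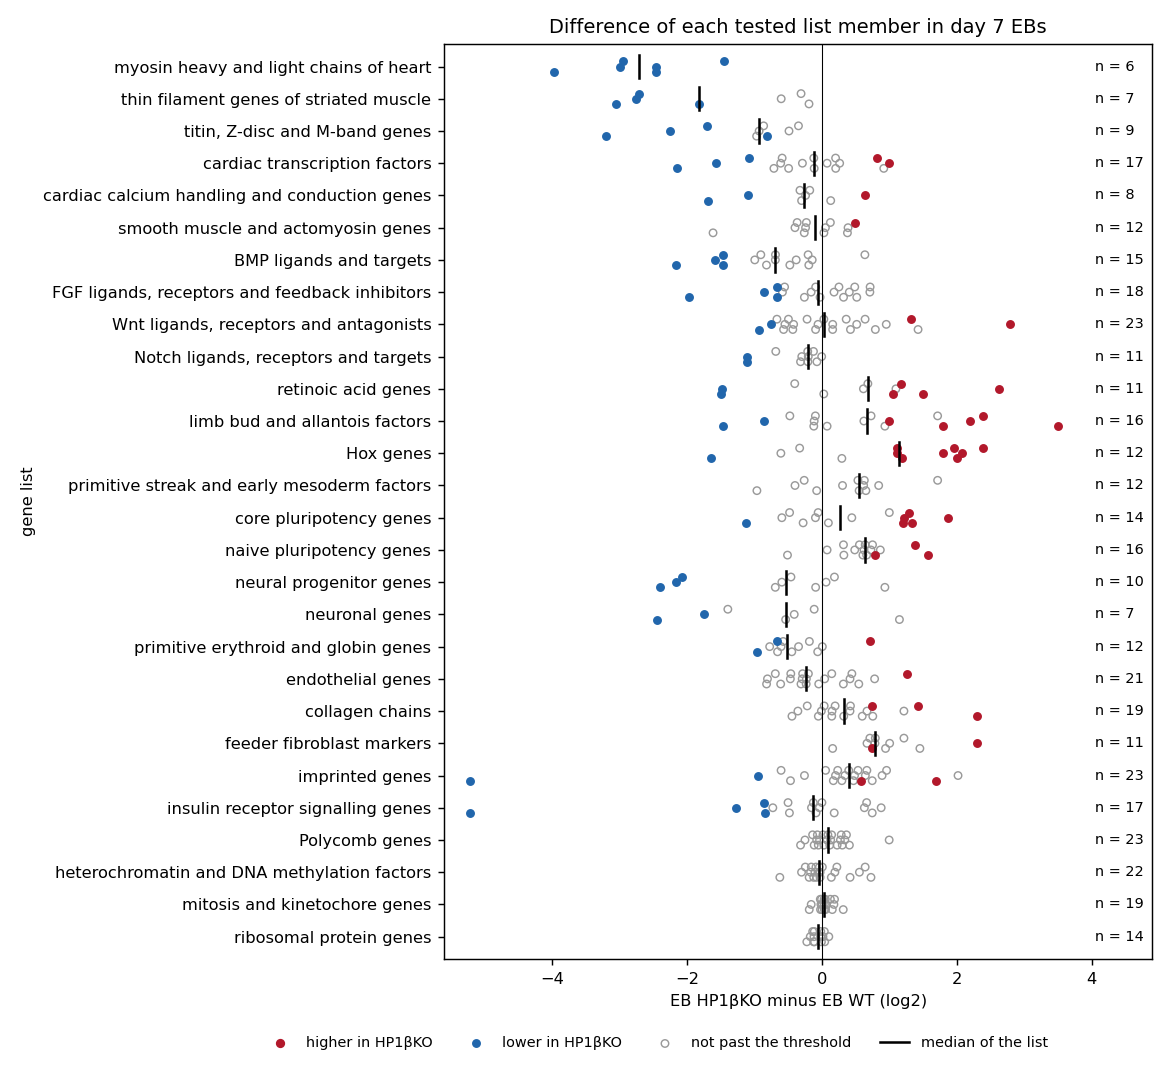
Log2 difference of HP1βKO from WT EBs (x axis) for each tested member of 28 gene lists (y axis), with filled red points for genes higher in HP1βKO and filled blue points for genes lower (adjusted p under 0.05), open points for the rest, a bar at each list's median and the number tested at the right. Medians lie at -2.71 for the heart myosins and 1.15 for the Hox genes, and near 0 for mitosis and ribosomal protein genes. Of the 12 Hox genes, 9 were above the floor on HP1βKO arrays only and 2 on WT arrays only. Of the 6 myosins, 2 were above it on WT arrays only. The floor set the direction of these genes.

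The machinery of heterochromatin itself, of Polycomb repression and of growth gave no call, where 3.73% of all genes were called on 12 arrays and 19.8% on the 6 EB arrays, so that a list of this size may hold none. None of 22 tested heterochromatin and DNA methylation factors passed limma's adjusted threshold (median -0.04), 2 had an unadjusted p under 0.05, and on the 6 EB arrays alone 4 were higher and 1 lower. Setdb1 and Suv39h2, which methylate lysine 9 of histone H3, differed by -0.24 and -0.19, Trim28 by 0.14 and Dnmt3b by -0.62. Of 23 Polycomb genes none was called either (median 0.09, 2 with an unadjusted p under 0.05, 4 higher on the 6 EB arrays alone), with Ezh2 at -0.05, Suz12 at 0.13 and Phf19 at 1.00. Mitosis and kinetochore genes (19 tested, median 0.04), replication genes (17, -0.09) and ribosomal protein genes (14, -0.06) had no call by limma, none with an unadjusted p under 0.05, and none on the 6 EB arrays alone. The 12 primitive streak and early mesoderm factors tested also had no call on 12 arrays, with 3 at an unadjusted p under 0.05, but a median of 0.54 and 7 higher and 1 lower on the 6 EB arrays alone. Of interferon and antigen presentation genes only Rsad2, an antiviral enzyme, was called (1.19 ± 0.16, adjusted p = 0.0037), 12 of 13 differences were above 0 (median 0.47), and 8 were higher on the 6 EB arrays alone. Rsad2 was above the floor on HP1βKO arrays only, so that the floor set its direction. In total 18 of 60 lists, with 199 tested members, had no call.

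Whole chromosomes were not level. The 573 tested genes of chromosome 8 had a median log2 difference of -0.22 between HP1βKO and WT EBs, with 82.2% of genes below 0, and the 879 of chromosome 11 a median of 0.16, with 23.1% below 0. Medians of the other chromosomes lay between -0.10 (chromosome 13) and 0.03 (chromosome 7). The shifts ran along the whole chromosome: cut into 4 runs of genes, chromosome 8 had medians between -0.30 and -0.17, and chromosome 11 between 0.12 and 0.18. Set against the mean of the 6 EB arrays, the chromosome 8 median was -0.03 and -0.02 on the HP1βKO arrays, -0.16 and -0.16 on the HP1αKO arrays and 0.18 and 0.20 on the WT arrays. On chromosome 11 it was 0.05 and 0.07 on HP1βKO, 0.05 and 0.05 on HP1αKO and -0.10 and -0.12 on WT arrays, so in both cases the WT arrays stood apart from both knockouts. HP1αKO minus WT gave -0.32 and 0.18 for chromosomes 8 and 11 in EBs, and HP1βKO minus WT gave -0.07 and 0.09 in ESCs, or -0.18 and 0.26 without the 2 ESC libraries with contrary Cbx5. Set against the mean of the 6 ESC arrays, the chromosome 8 median was 0.16 on ESC WT 1 and -0.12 on ESC WT 2. It was -0.15 on ESC HP1αKO 1, 0.18 on ESC HP1αKO 2, and -0.12 and 0.04 on the ESC HP1βKO arrays. Chromosome 8 held 3 genes that rose and 18 that fell (Apela and Cbln1 among those that fell), and chromosome 11 held 29 and 11, with Tbx4, Grin2c, Grb10, Myl7, Myl4, Car4, Pyy and Cbx1. Outside these chromosomes 317 of 8672 genes were called (3.66%), 162 higher and 155 lower. Line and genotype cannot be told apart in these shifts, and their part in the calls on these chromosomes was not tested.

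**Figure D4:**
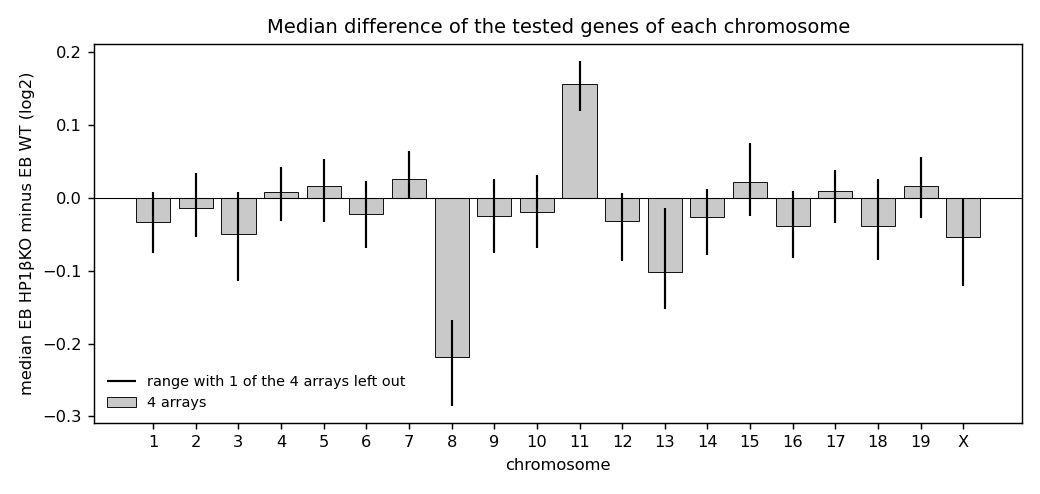
Median log2 difference of HP1βKO from WT EBs (y axis) over the tested genes of each chromosome (x axis), as bars, with lines for the range of medians when 1 of the 4 arrays is left out. Chromosome 8 (-0.22, range -0.29 to -0.17) and chromosome 11 (0.16, range 0.12 to 0.19) lie apart from the others.

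Whether the difference was already there before differentiation was asked by testing the EB difference against the ESC difference. For 167 genes (1.65%) the 2 differed at an adjusted p of 0.05, and for 640 once the 2 ESC libraries with contrary Cbx5 were left out. None of the 50 named rises and falls was called in ESCs, where 1 of all genes tested was (0.00988%), and 47 of the 50 differed by less than 1 (log2) there, 34 by less than 0.5. Without the 2 libraries, 43 of the 50 differed by less than 1, 32 by less than 0.5. Of the 7 at 1 or more, Grb10 and Apela differed in the direction they took in EBs, and Dkk2, Col3a1, Car4, Myh6 and Otx2 in the opposite one. That fit rests on 1 ESC WT array, ESC WT 1, which is assumed to vary like the others. Its summed feeder marker signal was the highest of the ESC arrays (2653, against 764 on ESC WT 2). Dkk2, S1pr3 and Col3a1 gave log2 signals of 5.33, 6.05 and 7.10 on ESC WT 1, against 3.73, 5.15 and 5.18 on ESC WT 2. The part of feeder cells in these ESC differences was not tested. Grb10 differed by -1.95 in ESCs (-2.32 without the 2 libraries) and Apela by -0.66 (-1.24). Car4 differed by 1.59 (1.29) and Actc1 by 1.60 (0.89), neither of them called on 12 arrays. Of the 50, 40 showed a difference that changed with state, 17 rises and 23 falls, and all 40 did so without the 2 libraries, with the same sign. As the 50 were chosen for the size of their EB difference, these counts are a description. Against HP1αKO EBs, 349 genes (3.45%) differed from HP1βKO EBs, and 102 (1.01%) differed between HP1αKO and WT EBs. As these comparisons share arrays with the one above, they are not separate evidence. For Myl7, HP1βKO minus HP1αKO was -4.86 and HP1αKO minus WT 0.90 (adjusted p = 3.45e-05 and 0.409).

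**Figure D5:**
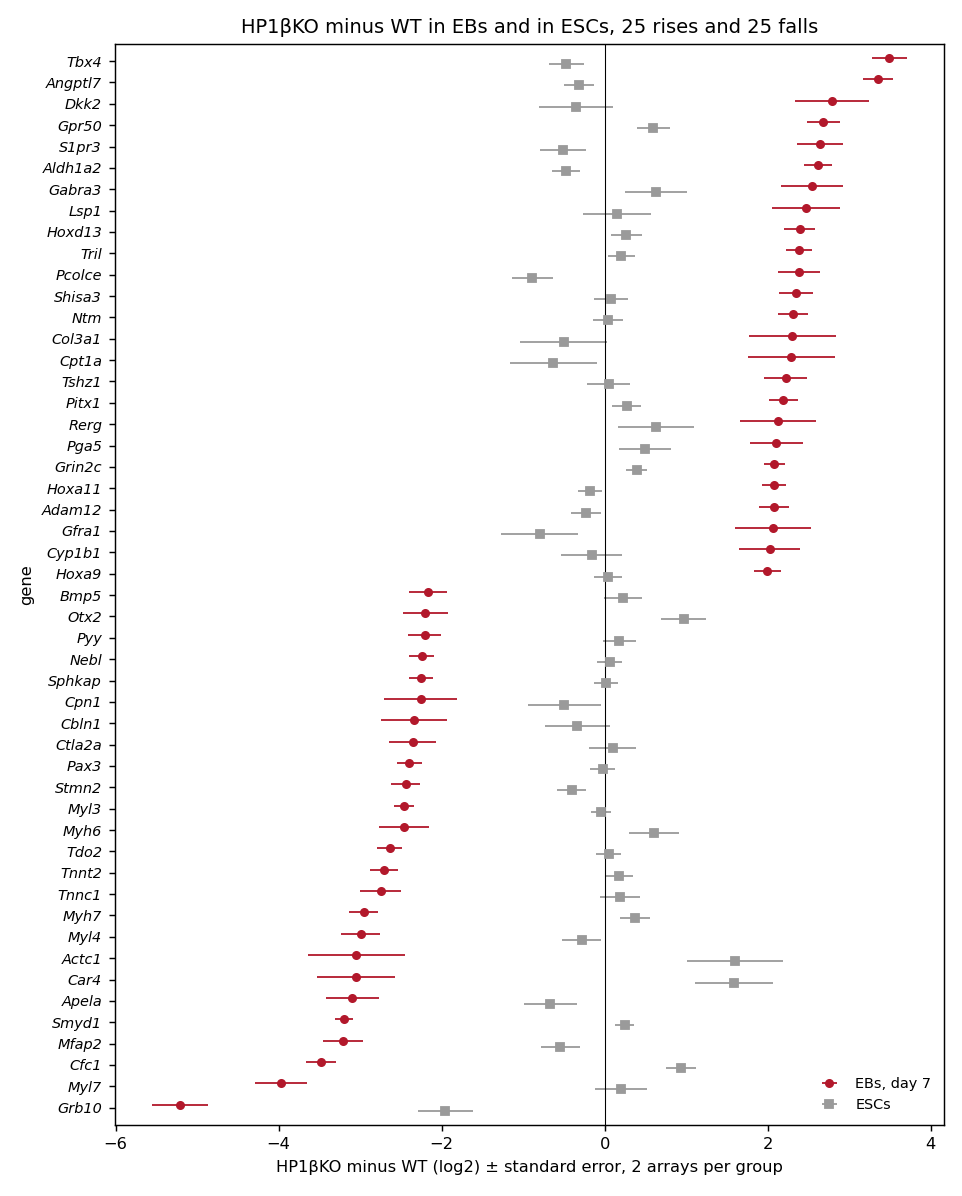
Log2 difference of HP1βKO from WT ± limma's standard error (x axis, 2 arrays per group) for the 25 largest rises and 25 largest falls in day 7 EBs (y axis), with red circles for EBs and grey squares for ESCs. In ESCs, where all 4 arrays are drawn including the library labelled ESC WT 2, 47 of the 50 differ by less than 1, and 43 do without that library.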

How the data were processed

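RNA of 12 arrays (Affymetrix, 2 per group of 6: ESCs and day 7 EBs, each WT, HP1αKO and HP1βKO) was hybridised by the authors, who processed the scans with robust multi-array average (RMA) in Affymetrix Expression Console and deposited log2 signals, so that background correction and quantile normalization preceded everything done here. Software versions: not given in the sources used here. Feature names match the Mouse Gene 1.0 ST annotation, while the methods name an exon array. Of 35556 features, 21789 carry 1 symbol, 1621 several and 12146 none. Only the first kind was analysed. A RefSeq gene table held 21698 of these and changed 0 symbols, and a gene with several features (999 of 19938 genes) was represented by its brightest one on average. Array signals carry no read depth, and their number limits the precision.

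The 10124 genes above a signal of 45 on at least 1 of the 4 arrays were fitted with limma 3.58.1 in R 4.3.3, as 6 group means over all 12 arrays (6 residual degrees of freedom). Two-sided p-values were adjusted over these genes (Benjamini-Hochberg), and a gene was called at 0.05. An exact permutation of 2 against 2 arrays cannot go below 0.333 and was not used. Standard errors (±) are limma's. Named genes are Cbx1, Cbx3, Cbx5, Hprt, the 25 largest rises and 25 largest falls among called genes with a gene name (9 called locus names were left out) and members of 60 gene lists (1011 genes, 610 tested). The comparison, the members and the lists were chosen with earlier results of these data known. Alternatives were other sets of arrays, floors of none, 100 or on the mean, centred arrays, the mean of features, trend and robust moderation, array weights, the replicate number as a block, fold rules over every pair and leaving out each array. A crossed block and the ESC difference without 2 ESC libraries were added after seeing the data. The fit was tested on simulated data.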

Additional observations from a re-analysis of the deposited data

Results flagged for a closer look

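The difference between HP1βKO and WT differed between EBs and ESCs, by the interaction in limma's 12-array fit, for 167 genes. Among the named genes, values below are the EB difference minus the ESC difference (log2), and in each case the EB difference is the larger in size. For heart muscle it was -4.17 for Myl7, -4.65 for Actc1, -3.44 for Smyd1, -3.33 for Myh7, -3.06 for Myh6, -2.94 for Tnnc1, -2.88 for Tnnt2, -2.71 for Myl4, -2.42 for Myl3 and -2.31 for Nebl. Actc1 (ESC difference 1.60) and Car4 (1.59) had ESC differences above 0 that were not called on 12 arrays, and fell in HP1βKO EBs, with interactions of -4.65 and -4.64. The same was so of Otx2 (0.97 in ESCs, interaction -3.17) and Cfc1 (0.94 in ESCs, interaction -4.42).

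Other falls gave -3.25 for Grb10, -2.67 for Mfap2, -2.43 for Apela, -2.69 for Tdo2, -2.03 for Stmn2, -2.37 for Pax3, -2.45 for Ctla2a, -2.27 for Sphkap, -2.39 for Pyy and -2.39 for Bmp5. The rises of limb and posterior genes gave 3.96 for Tbx4, 1.93 for Pitx1, 2.12 for Hoxd13, 2.26 for Hoxa11 and 1.95 for Hoxa9. Among the other rises it was 3.67 for Angptl7, 3.27 for Pcolce, 3.15 for S1pr3, 3.14 for Dkk2, 3.10 for Aldh1a2, 2.30 for Adam12, 2.27 for Shisa3, 2.27 for Ntm, 2.18 for Tril, 2.17 for Tshz1, 2.09 for Gpr50 and 1.69 for Grin2c. These genes were chosen for the size of their EB difference, so the values are a description. Without the 2 ESC libraries with contrary Cbx5, the ESC differences of Actc1, Car4, Otx2 and Cfc1 were 0.89, 1.29, 1.12 and 0.93, each against 1 ESC WT array. All 40 kept their sign and passed when these libraries were left out.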

How the results depend on the processing

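Against the 378 genes called, 2000 were called on the 6 EB arrays alone, 1376 from the 4 arrays compared, 1011 once the 2 ESC libraries with contrary Cbx5 were left out, 239 with a floor of 100, 1416 with array weights and 126 where every pair of arrays had to differ at least 2.5-fold (555 at 1.5-fold). The 378 were all among the calls in the first 3 settings and with array weights. Leaving out 1 of the 4 arrays gave between 110 and 130 calls, and for the change with state, against 167, between 62 and 70, where that change had 640 calls without the 2 ESC libraries. These fits hold fewer arrays. No floor (425), a floor on the mean (265), centred arrays (382), the mean of features (375) and trend and robust moderation (362) stayed within 1.5 times. Every called gene kept its sign in every setting in which it was tested. The HP1βKO and WT arrays did not overlap for any of the 378. Leaving out arrays, or changing the floor, moderation or weights, could therefore not have reversed a sign. Of the 50 named rises and falls and Cbx1, 12 or 13 lost the call without any 1 array, 2 with centred arrays, 2 of 43 with a floor of 100, 3 of 42 with a floor on the mean and 3 with no floor.

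Replicate numbers do not pair the EBs: replicate differences of HP1βKO and WT EBs correlated at -0.461 over genes. With the replicate block 401 genes were called on 12 arrays and 1409 on the 6 EB arrays, and 201 for the change with state. With the numbers crossed, a setting chosen after seeing the data, 2733 were called on the 6 EB arrays.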
